A study of Mus musculus with 2 samples.

Results

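Cxcl13 was followed as 1 gene of the 16098 listed for both tissues, in 2 single-cell libraries of mouse gut stroma, 1 of the colon and 1 of the small intestine. Cxcl13 was selected on measured values of these data: its level, its share of positive cells and its counts per cell in each cell type named by the authors, and the genes that differ between colon "CD81- FBs" with 3 or more Cxcl13 molecules and those with none. Levels and that contrast are therefore given as a description, with nothing read from them as support. CXCL13 is a chemokine that draws B cells through its receptor CXCR5. It is best known from follicular dendritic cells and marginal reticular cells of lymphoid tissue, where lymphotoxin from lymphocytes acts on the lymphotoxin beta receptor of stromal cells and drives the gene through the noncanonical NF-kB pathway. In the gut it helps to gather B cells into Peyer's patches and isolated lymphoid follicles.

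Both groups were tissue of healthy, untreated mice. Epithelium was stripped, the colon was digested for 60 minutes and the small intestine for 45 minutes, and live cells without CD45 (an immune marker) and CD326 (EpCAM, an epithelial marker) were sorted, with about 16000 cells loaded per library. How many animals were used, and their strain, age and sex, is not stated in the labels. Because there was 1 library per tissue, no difference between tissues has a replicate check and no test was made. Every interval printed is a 95% interval that covers counting error only, and molecules that come from amplified copies are counted once by their unique molecular identifier (UMI).

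The colon library held 6018 cells and 40684070 UMIs (median 6598 per cell), and the small intestinal library held 9359 cells and 58134526 UMIs (median 5943). The libraries shared 21 cell barcodes. The authors' names were checked against marker genes: Cd81, the tetraspanin that separates trophocytes from the other fibroblasts, was at 585 CPM (UMIs of the gene among 1000000 UMIs of all genes) in colon trophocytes and 38.0 CPM in colon CD81- FBs, and at 560 and 8.14 CPM in the small intestine. Pdgfra was highest in the PDGFRa-high SEMFs (subepithelial myofibroblasts), at 1137 CPM (colon) and 2778 CPM (small intestine). The small intestinal SMCs (smooth muscle cells) held the most Myh11, smooth muscle myosin, of the small intestinal types (1554 CPM), but also 9211 CPM of Adamdec1, a protease gene of lamina propria fibroblasts, above the 8191 CPM of the CD81- FBs. The colon library holds cells of both sexes: 1751 cells had UMIs of 4 Y-linked genes and none of Xist, 2700 had Xist and none of the Y-linked genes, and 154 had both. In the small intestine Xist is not in the table and 6896 cells had Y-linked UMIs.

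Cxcl13 (ENSMUSG00000023078.6) lies on the plus strand of mouse chromosome 5 at 95956951 to 95961068 in GENCODE on GRCm38, the build named mm10 in the submitters' processing notes. It has 4 exons, and its 3' UTR, which the 3' tags of this assay mainly read, lies in exon 4 at 95960266 to 95961068. No other annotated gene overlaps it. The 250 bases before its RefSeq start (GRCm38.p6, chr5:95956689-95956938, plus strand) are shown because the elements through which lymphotoxin signalling is known to reach this gene lie in its proximal promoter. Capitals mark the matches of 3 patterns searched on both strands.

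Cxcl13 promoter: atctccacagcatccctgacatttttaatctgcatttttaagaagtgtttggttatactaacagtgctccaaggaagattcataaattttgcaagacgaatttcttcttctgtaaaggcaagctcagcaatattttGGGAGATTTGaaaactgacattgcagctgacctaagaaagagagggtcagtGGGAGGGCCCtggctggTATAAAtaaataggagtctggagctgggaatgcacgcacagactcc

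The first run in capitals, GGGAGATTTG, matched GGGA, 1 base of any kind and ATTTG, the form of the kB element that the noncanonical dimer of RelB and p52 is known to bind in this gene, and lay at 95956825 to 95956834. This pattern was found in 0.280% of 32851 RefSeq promoters of the same length. The second run, GGGAGGGCCC at 95956876 to 95956885, matched the general kB pattern of GGG, 5 bases of any kind and CC on both strands, and 45.8% of the promoters held that pattern. The third, TATAAA at 95956893 to 95956898, was in 12.4% of them. The 3 matches do not overlap. These are matches of letters, and no binding was measured here.

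In the colon Cxcl13 was highest in CD81- FBs. In these cells it was at 788 CPM (777 to 799) in the colon, from 19458 UMIs in 3631 cells, and at 106 CPM (102 to 111) in the small intestine, from 2142 UMIs in 2823 cells. The colon level was 7.41-fold higher, a log2 ratio of 2.89 (2.83 to 2.95). PDGFRa-high SEMFs showed the same direction, at 91.8 CPM (85.1 to 99.0) for the colon against 22.7 CPM (19.2 to 26.7), with a log2 ratio of 2.02 (1.76 to 2.28). CD81+ trophocytes, the fibroblasts below the crypts that make R-spondin and Grem1, showed the opposite: colon cells held 41.5 CPM (36.6 to 46.8) and small intestinal cells 143 CPM (137 to 149), 3.46-fold more, so that the ratio on the log2 scale was -1.79 (-1.98 to -1.60). The fibroblast type with the highest level was thus a different one in each tissue.

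**Figure D1:**
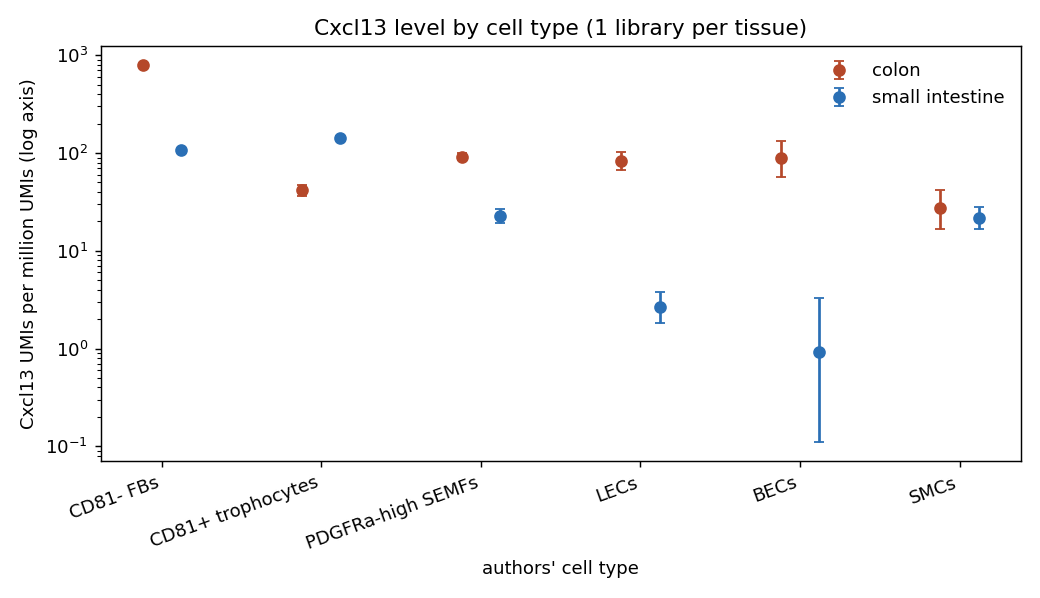
Cxcl13 level in CPM (vertical, log axis) in 6 cell types (horizontal) of the colon and the small intestine, with bars for 95% Poisson intervals of counting error and 1 library per tissue. Colon CD81- FBs stand at 788 CPM, and trophocytes are the fibroblasts in which the small intestine (143 CPM) lies above the colon (41.5 CPM).

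The order of levels in the colon ran from CD81- FBs at 788 CPM to SEMFs at 91.8, BECs (blood endothelial cells) at 89.0, LECs (lymphatic endothelial cells) at 83.5, trophocytes at 41.5 and SMCs at 27.2 CPM. SEMFs, BECs and LECs did not differ beyond their counting intervals, nor did trophocytes and SMCs (log2 ratio 0.61, -0.03 to 1.32). In the small intestine the order was trophocytes at 143 CPM, CD81- FBs at 106, SEMFs at 22.7, SMCs at 21.7, LECs at 2.68 and BECs at 0.912 CPM. There the SEMFs and SMCs did not differ beyond counting error (log2 ratio 0.06, -0.38 to 0.52), nor did LECs and BECs, which held 30 and 2 UMIs. Trophocytes were above CD81- FBs by 1.35-fold in the small intestine, and below them by 19.0-fold in the colon. With 8 colon pericytes (2 UMIs), and 4 colon and 24 small intestinal cells named Proliferating (0 UMIs), those labels are too small to place.

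Few cells carried most of the transcript. In colon CD81- FBs, 2473 cells had no Cxcl13 UMI, 327 had 1, 117 had 2, 306 had 3 to 9 and 408 had 10 or more. Of the last, 197 cells had 30 or more, and the highest cell had 284. Cells with 3 or more UMIs were 19.7% of the cells (18.4 to 21.0) and held 97.1% of the Cxcl13 UMIs, and without them the level of this type was 28.2 CPM. The 5% of cells with the most Cxcl13 held 68.1% of its UMIs, against a median of 26.8% over the 3731 genes with 1000 or more UMIs in these cells, and 11 genes were more unevenly spread, Cxcl10 and Ccl2 first among them.

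Small intestinal fibroblasts had a shorter upper tail than colon CD81- FBs. In small intestinal CD81- FBs, 226 cells (8.01%, 7.03 to 9.07) had 3 or more UMIs, 42 had 10 or more and 3 had 30 or more, with 87 in the highest cell. In small intestinal trophocytes, 186 cells (9.72%, 8.43 to 11.1) had 3 or more, 64 had 10 or more and 5 had 30 or more, with 58 in the highest. These cells held 75.5% and 83.8% of the Cxcl13 UMIs of their types. The level left without them was 28.4 CPM in small intestinal CD81- FBs and 25.5 CPM in small intestinal trophocytes, beside 28.2 CPM in colon CD81- FBs. It was 32.2 CPM in colon SEMFs, 13.7 CPM in small intestinal SEMFs and 10.1 CPM in colon trophocytes. Leaving out every cell with 3 or more UMIs caps this level, so it is not read as a shared baseline. In colon trophocytes the tail was shorter than in small intestinal ones: 19 cells (2.17%) reached 3 UMIs, and the highest held 36. In small intestinal SEMFs 9 cells (0.812%) reached 3 UMIs, with no cell above 22. In colon SEMFs 80 cells (7.24%) did, with no cell above 21 UMIs.

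**Figure D2:**
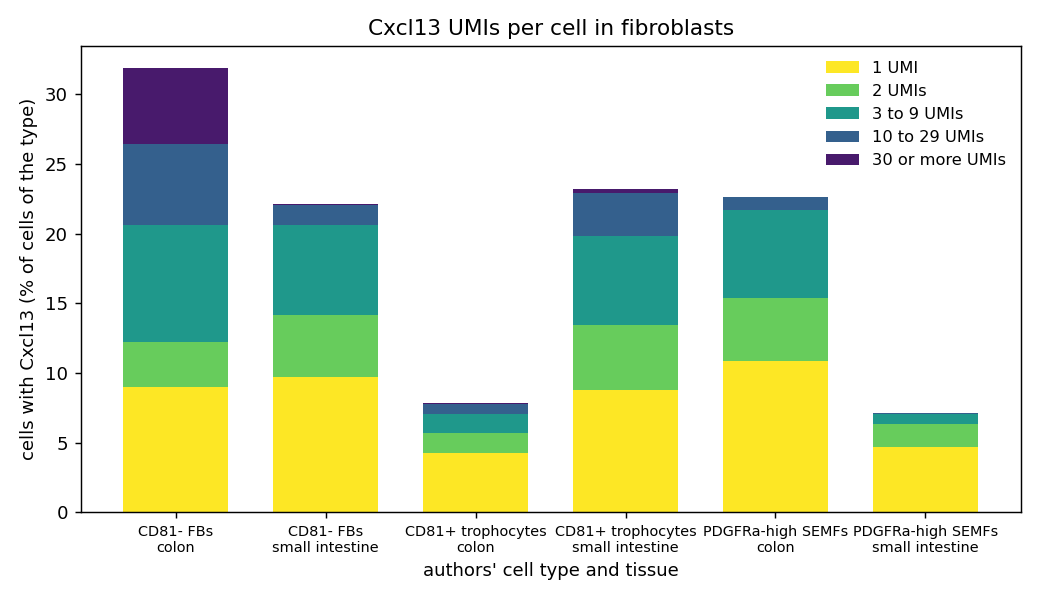
Percent of cells of each fibroblast type and tissue (horizontal) that held 1, 2, 3 to 9, 10 to 29 or 30 or more Cxcl13 UMIs (stacked bars, vertical axis from 0). Colon CD81- FBs hold 197 of the cells with 30 or more UMIs, while the other fibroblast populations hold at most 5 such cells each.

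The share of cells with any Cxcl13 UMI differed less between tissues than the level did. It was 31.9% (30.4 to 33.4) in colon CD81- FBs and 22.1% (20.6 to 23.7) in small intestinal CD81- FBs, at median depths of 6697 and 6977 UMIs. With each cell thinned to 3000 UMIs, which left out 168 and 127 shallower cells, the shares were 25.8% and 14.6%. Trophocytes were positive in 7.89% of colon cells (6.19 to 9.87) and 23.2% of small intestinal cells (21.3 to 25.2). SEMFs were positive in 22.6% of colon cells (20.2 to 25.2) and 7.12% of small intestinal cells (5.68 to 8.80).

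Endothelial cells were used as a measure of the background from free RNA, since most of them should lack this chemokine. Small intestinal LECs were positive in 0.440% of 2498 cells (median 4117.5 UMIs) and BECs in 0.382% of 524 cells, where no cell had 3 or more UMIs, for which a floor of 3 counts allows a share of up to 0.573%. Colon LECs were positive in 5.53% of 217 cells (2.89 to 9.46, median 4545 UMIs) and colon BECs in 7.55% of 53 cells. The share in colon trophocytes, 7.89%, was not above these beyond the counting intervals. These shares include endothelial cells that also carry fibroblast transcripts, described next, so how much of the trophocyte share is background was not settled. In colon trophocytes 76.1% of the Cxcl13 UMIs came from the 19 cells with 3 or more.

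In these labels the UMIs again sat in few cells. In colon LECs 7 cells held 84 of the 89 UMIs, and those 7 cells also held 2097 CPM of Adamdec1 and 6717 CPM of Dcn (decorin, a fibroblast proteoglycan), against 446 and 563 CPM in the other 210. Of the 7, 2 had both Y-linked and Xist UMIs. In colon BECs 1 cell held 21 of the 24 UMIs. It had 18790 UMIs in all, both kinds of sex-linked UMIs and 7185 CPM of Adamdec1. In small intestinal LECs 1 cell held 20 of the 30 UMIs, with 4892 CPM of Adamdec1 and 13717 CPM of Dcn. Without cells of 3 or more UMIs, Cxcl13 was at 4.92 CPM in colon LECs and 0.893 CPM in small intestinal LECs. Whether such cells are pairs caught in 1 droplet was not tested.

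Within the colon, Cxcl13 had the largest ratio between Y-linked and Xist CD81- FBs of the genes compared, sex-linked genes left out. CD81- FBs with Y-linked and no Xist UMIs (1040 cells) held 1447 CPM (1419 to 1475), and those with Xist and no Y-linked UMIs (1615 cells) held 253 CPM (244 to 263), at median depths of 6730 and 7110 UMIs. The log2 ratio was 2.51 (2.45 to 2.57), a 5.71-fold difference. On the scale of log2(CPM + 10), which damps low levels, it was 2.47, the highest of 7227 genes, of which the median was 0.00. In this comparison 0.0969% of genes were past a log2 ratio of 1 toward the Y-linked cells and 0.0692% past it toward the Xist cells. Since the animals behind the library are not known, sex, animal and any difference in the tissue taken from each cannot be told apart.

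Both the number of Cxcl13-positive cells and the amount per cell differed. Cells with 3 or more UMIs were 28.3% (25.5 to 31.1) of the Y-linked CD81- FBs and 12.1% (10.5 to 13.8) of the Xist CD81- FBs. Among these cells the median was 18 UMIs in the former and 7 in the latter, and the summed levels were 5147 and 1810 CPM. There were 104 Y-linked and 19 Xist cells with 30 or more UMIs. The 880 CD81- FBs with neither kind of UMI held 1090 CPM, and the 96 with both held 750 CPM. In trophocytes the level was 55.9 CPM in Y-linked and 20.9 CPM in Xist cells, a log2 ratio of 1.42 (0.97 to 1.88). In SEMFs it was 94.4 and 66.6 CPM, a log2 ratio of 0.50 (0.23 to 0.77).

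**Figure D3:**
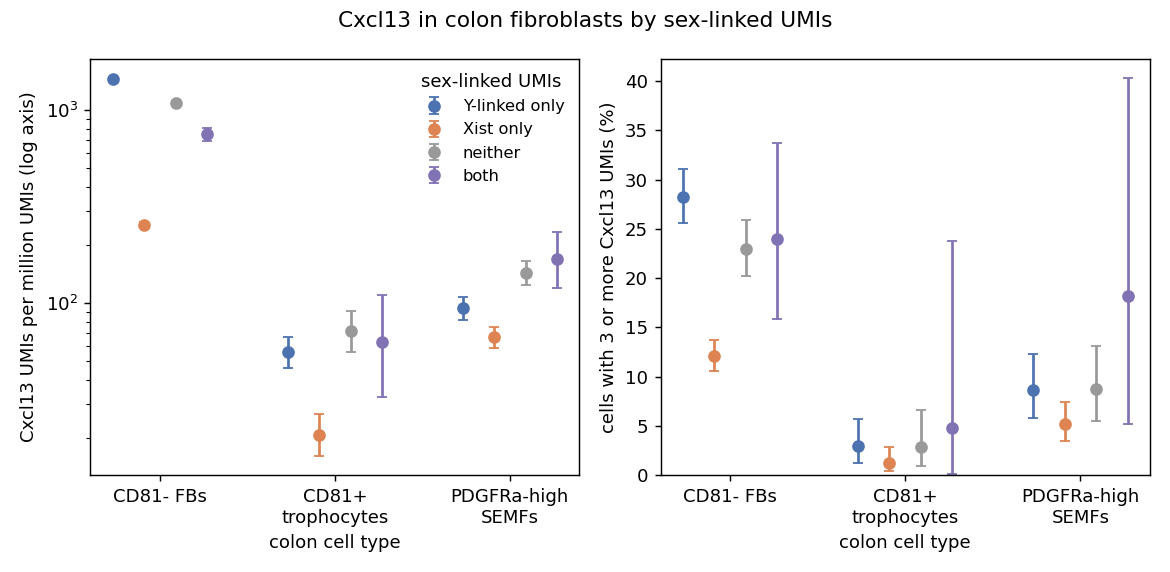
Cxcl13 level (left, CPM, log axis) and percent of cells with 3 or more Cxcl13 UMIs (right) in 3 colon fibroblast types, split by whether a cell held Y-linked UMIs, Xist, neither or both. Bars are 95% intervals of counting error. In CD81- FBs the Y-linked cells (1447 CPM, 28.3%) lie above the Xist cells (253 CPM, 12.1%).

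The tissue difference depended on which colon cells were used, in size and not in direction. Against the small intestinal CD81- FBs at 106 CPM, Y-linked colon cells gave a log2 ratio of 3.77 (3.70 to 3.83), and Xist colon cells gave 1.25 (1.17 to 1.33). For trophocytes the ratios were -1.36 (-1.64 to -1.09) with Y-linked and -2.78 (-3.16 to -2.42) with Xist colon cells. For SEMFs they were 2.06 (1.75 to 2.37) and 1.55 (1.25 to 1.86). On the damped scale with all colon CD81- FBs, Cxcl13 was at 2.78 and ranked 23 from the top of 7870 genes, where 2.30% of genes were past the fold toward the colon and 5.69% toward the small intestine, with a median of -0.21. With the Y-linked colon cells alone it was at 3.65 and ranked 10 of 7897, beside 2.44% and 5.23% of genes past the fold. Digestion time differed between the tissues. So did sex-linked UMIs: 6896 small intestinal cells had Y-linked UMIs and Xist was not listed there, while the colon held both kinds of cells. The ratios with Y-linked colon cells come closest to like against like in these UMIs. Tissue, animal, digestion and library cannot be told apart, nor can sex in the ratios with all or with Xist colon cells.

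The receptor and the scavengers of the chemokine family were looked at in the same cells. Cxcr5 was nearly absent, with 29 UMIs in colon CD81- FBs and 15 in small intestinal ones, 1.17 and 0.744 CPM, and B cells, which carry this receptor, also carry the CD45 used to remove cells in the sort. Ackr4, a scavenger of the CCR7 ligands, was mainly a trophocyte gene, at 312 CPM in colon and 617 CPM in small intestinal trophocytes, while small intestinal CD81- FBs held 37.1 CPM and colon CD81- FBs 74 UMIs in all. Ackr1, which binds many inflammatory chemokines, was mainly in BECs, at 70.5 CPM (colon) and 510 CPM (small intestine). Lymphotoxin beta receptor (Ltbr) was at 21.6 to 40.1 CPM in the 3 fibroblast types of both tissues, a much narrower range than that of Cxcl13. Tnfsf13b (BAFF, a B cell survival factor) was at 167 CPM in colon and 80.8 CPM in small intestinal CD81- FBs, above 28.3 and 35.3 CPM in the trophocytes of those tissues.

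Within colon CD81- FBs, the 714 cells with 3 or more Cxcl13 UMIs were set beside the 2473 cells with none. The cells just inside the limit, 70 cells with exactly 3, held 443 CPM of Cxcl13, and the 117 just outside with 2 held 282 CPM. The groups were alike in depth (median 6566.5 and 6733 UMIs) and in the share of mitochondrial UMIs (2.86% and 2.98%). They differed in sex-linked UMIs. Of the high cells 41.2% were Y-linked and 27.3% Xist cells, and of the cells without Cxcl13 24.9% and 49.5%. Ratios within Y-linked and within Xist cells are therefore given beside some of the genes and lists. Where they are not given, the 2 sets are not implied to be alike. Of 7108 genes with 100 or more UMIs and detection in at least 10% of the cells of the higher group, 16 (0.225%) were past a log2 ratio of 1 and 18 (0.253%) past -1 on the log2(CPM + 10) scale, with a median of -0.01.

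The markers of these fibroblasts went both ways: of 6 listed, 5 passed the filter, Adamdec1 and Agt were past the fold on the lower side, Pdgfra (-0.14) and Fgf10 (0.09) were near 0, and Edil3 was higher at 718 and 517 CPM (0.47). Adamdec1, the most abundant of them, was lower in the cells with Cxcl13. It was at 2861 CPM in the high cells and 6408 CPM in those without, a log2 ratio of -1.16, with -1.31 in Y-linked and -1.08 in Xist cells. Over 5 bins of 0, 1 to 2, 3 to 9, 10 to 29 and 30 or more Cxcl13 UMIs it went from 6408 to 5564, 3791, 2885 and 1359 CPM. Shares by Adamdec1 level sort the same cells again, so they restate this contrast and are no separate evidence. In the lowest quartile by Adamdec1 level 34.1% of the cells held 3 or more Cxcl13 UMIs, and in the highest quartile 6.95% did. Within Y-linked cells these shares were 50.8% and 10.4%, and within Xist cells 17.8% and 3.47%.

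Among the lower genes Cd36, a fatty acid uptake receptor, was at 10.5 CPM in high cells and 77.9 CPM in those without (log2 ratio -2.10). The ratio of Cd36 was -3.01 in Y-linked and -1.60 in Xist cells. Cxcl14, a chemokine of the same CXC family, was at 39.9 and 176 CPM (-1.90), and it was lower in each successive bin, down to 7.60 CPM in cells with 30 or more Cxcl13 UMIs. Agt, angiotensinogen, was at 21.3 and 72.8 CPM (-1.40), and Ogn, a small proteoglycan of the matrix, at 233 and 611 CPM (-1.35). Rgs6, a regulator of G protein signalling (-1.62), Tgfbi, a matrix protein induced by TGF-beta (-1.31), the noncoding 4930467D21Rik (-1.27), Acta2, smooth muscle actin (-1.15), and Cpxm2, a carboxypeptidase-like protein (-1.14), completed the 10 lowest. All 10 were lower in Y-linked and in Xist cells, with 9 and 9 of them past the fold, beside 0.432% and 0.226% of all genes. Both sets are parts of the cells in which the 10 were chosen, so this is no separate evidence. Over the bins 9 of 10 stepped down every time, Acta2 being the exception. Of the Acta2 UMIs in high cells, 28.9% came from 1 cell, and without the top cell of each group its ratio was -1.41. With all cells kept, the Acta2 ratio was -1.71 in Y-linked and -0.57 in Xist cells.

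Of the 10 highest genes, 9 in Y-linked and 4 in Xist cells were past the fold, beside 0.259% and 0.0930% of all genes. These genes too were chosen in cells that include both sets, so the counts are no separate evidence. C3, the central complement component, was at 363 CPM in high cells and 107 CPM in those without (log2 ratio 1.67), and Enpp2, the enzyme autotaxin that makes lysophosphatidic acid and is known from lymphoid stroma, at 109 and 39.9 CPM (1.26). Cd81, the gene whose absence names this type, was at 73.9 and 28.9 CPM (1.11), and it reached 112 CPM in cells with 30 or more Cxcl13 UMIs, against 585 CPM in colon trophocytes. Mgp and Foxp2 were not among the 10 and were named for their ratios in both sets of sex-linked cells. Mgp, matrix Gla protein, an inhibitor of calcification, was at 4123 and 2033 CPM (1.02). Foxp2, a forkhead transcription factor, was at 113 and 47.2 CPM (1.10).

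Of the rest of the 10 highest, Frmpd4, a scaffold protein of synapses, was at 508 and 203 CPM (1.28). Csgalnact1, which starts chondroitin sulfate chains (1.31), Chl1, a neural adhesion molecule (1.27), Prlr, the prolactin receptor (1.24), Pde3b, a cyclic nucleotide phosphodiesterase (1.21), and Plcxd3 (1.11) had under 60 CPM in either group. Plcxd3 was short of the fold in both sets, at 0.88 in Y-linked and 0.51 in Xist cells. Plcxd3 was also higher in Y-linked than in Xist CD81- FBs as a whole (log2 ratio 1.94). The part of the sex-linked make-up in its pooled ratio was not tested. Dner, a transmembrane protein of the Notch family (1.25), was at 107 and 34.0 CPM in Y-linked cells and 19.5 and 19.7 CPM in Xist cells, so its difference was seen in the former and not in the latter. C3 was at 2.50 in Y-linked and 1.14 in Xist cells. Its level was 944 CPM in the Y-linked cells with 30 or more Cxcl13 UMIs and 331 CPM in the 19 such Xist cells.

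Among the 7106 genes with 50 or more UMIs in each of the Y-linked and Xist cells, 59.9% had the same sign in both. The 8 genes whose smaller ratio was largest were, on the higher side, Enpp2, Cd81, Prlr, C3, Mgp, Pde3b, Foxp2 and Kcnb2 (a potassium channel), and on the lower side Cxcl14, Cd36, Agt, Rgs6, 4930467D21Rik, Adamdec1, Tgfbi and Plxna4 (a semaphorin receptor). For Enpp2 the ratios were 1.48 and 1.26, for Cd81 1.48 and 1.21, and for Mgp 1.03 and 1.12. For Cxcl14 they were -1.88 and -2.25, and for Agt -1.54 and -1.88.

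**Figure D4:**
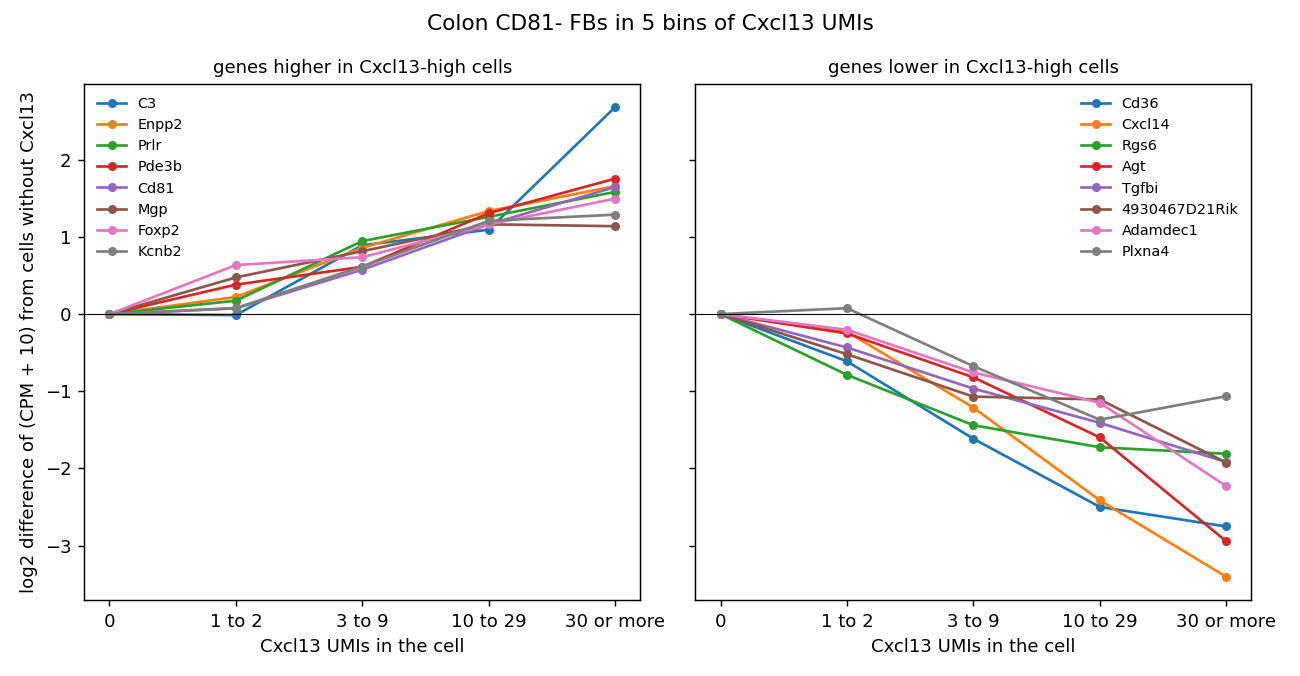
Difference from colon CD81- FBs without Cxcl13 in log2(CPM + 10) (vertical) over 5 bins of Cxcl13 UMIs per cell (horizontal), for the 8 genes higher (left) and the 8 lower (right) in both Y-linked and Xist cells. Each line is 1 gene. Adamdec1 goes from 6408 to 1359 CPM and Enpp2 from 39.9 to 147 CPM across the bins.

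Genes of the pathways around Cxcl13 were then read as lists, which were drawn up with results of these data known. Of 17 genes of the lymphotoxin and NF-kB list, 13 passed the filter and none was past the fold in either direction. Of all genes, 0.225% were past it on the higher and 0.253% on the lower side. The median of the 13 was 0.10 beside -0.01 for all genes. Ltbr was at 29.7 CPM in high cells and 29.9 CPM in those without, Relb at 55.3 and 51.0 CPM, Nfkb2 at 18.4 and 14.4 CPM, and Map3k14, the kinase NIK, at 18.2 and 16.9 CPM. Birc3 was the member that passed the filter with the highest ratio, 0.40, at 25.6 and 17.0 CPM. As so few of all genes were past the fold, having none here is not read as particular to this list. The activity of the proteins of these genes was not measured.

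Of 17 lymphoid stroma genes, 14 were listed and 7 passed, with a median of 0.35. Enpp2 was the member past the fold, beside 0.225% of all genes on the higher side. Tnfsf13b was at 259 and 143 CPM (0.81, with 0.90 in Y-linked and 0.49 in Xist cells), Icam1, an adhesion molecule for lymphocytes, at 470 and 338 CPM (0.46), Cxcl12 at 1979 and 1556 CPM (0.35), and Vcam1 at 207 and 170 CPM (0.27). Ccl19 and Ccl21a, which mark T zone reticular cells, were at 1.24 and 4.34 CPM in high cells, and Cr2, a defining receptor of follicular dendritic cells, at 0.413 CPM from 2 UMIs. Madcam1 and Tnfsf11, markers of marginal reticular cells, and Fcer2a were not listed for the colon. The 4 listed of 6 follicular dendritic markers summed to 184 CPM in high cells and 179 CPM in those without, nearly all of it Mfge8. In the lists of receptors and scavengers and of CC chemokines 3 genes passed the filter. None reached the fold, beside 0.225% (higher) and 0.253% (lower) of all genes. Ackr3, which takes up CXCL12, was at 77.8 and 156 CPM (-0.92). Ccl8 was at 71.0 and 75.7 CPM (-0.80 in Y-linked and 0.42 in Xist cells), and Ccl11 at 457 and 522 CPM.

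Retinoid genes leaned to the lower side, with 10 of 14 listed below 0. Their median was -0.26 over the 10 that passed (-0.19 in Y-linked and -0.36 in Xist cells). None was past the fold, beside 0.225% (higher) and 0.253% (lower) of all genes. Aldh1a2, which makes retinoic acid, was higher at 63.2 and 36.3 CPM (0.66), while Aldh1a1 was at 51.0 and 88.3 CPM (-0.69) and Dhrs3 at 33.0 and 65.6 CPM (-0.81). In the list of Wnt, BMP and R-spondin genes, 18 of 26 passed and 2 were past the fold, both lower, beside 0.253% of all genes. Wnt4 was at 107 and 240 CPM (-1.09), with -1.09 in Y-linked and -0.98 in Xist cells. Nrg1 was at 22.1 and 54.9 CPM (-1.02), with -0.46 in Y-linked and -2.02 in Xist cells, so each set of cells kept 1 of the 2 past the fold. Grem1 (452 and 294 CPM, 0.60) and Rspo3 (83.6 and 52.2 CPM, 0.59) were higher and short of the fold. The 7 trophocyte markers went both ways, 4 above 0 (Cd81 and Grem1 among them) and 3 below, with Pi16 at 1.86 and 10.8 CPM (-0.81) and Cd34 at 299 and 331 CPM (-0.15). Interferon response genes had a median of -0.21 over 18 that passed, with 0 past the fold, but the median was 0.033 over 14 in Y-linked cells and -0.19 over 19 in Xist cells. Several were also lower in Y-linked than in Xist cells as a whole, such as H2-K1 (-0.77) and Iigp1 (-1.26), and the part of the sex-linked make-up in the pooled median was not tested. The median was 0.31 over 17 immediate early genes and 0.22 over 13 heat shock genes. Both medians were above 0 in Y-linked (0.33 and 0.17) and in Xist cells (0.37 and 0.21). Either list had 0 past the fold, and at the shares of all genes given above such counts are not read as particular to a list.

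Markers of other cells were summed in both groups. B lineage markers summed to 105 CPM in high cells and 63.0 CPM in those without. Nearly all of it was Igkc (78.3 and 48.6 CPM) and Jchain (25.6 and 12.1 CPM), genes that plasma cells express. Cd79a was at 1.03 and 1.13 CPM, and Ms4a1 at 0 and 1.13 CPM. Myeloid markers summed to 57.6 and 38.9 CPM, T and innate lymphoid markers to 0.206 and 0.357 CPM, blood endothelial markers to 25.6 and 19.8 CPM, epithelial markers to 7.02 and 4.76 CPM, and mesothelial markers to 0 and 0.357 CPM. Pericyte markers summed to 71.4 and 61.5 CPM, glial markers to 101 and 109 CPM, lymphatic endothelial markers to 232 and 249 CPM, smooth muscle markers to 69.2 and 167 CPM, SEMF markers to 575 and 711 CPM, and trophocyte markers to 1771 and 1553 CPM. The part of any of these cells in the contrast was not tested.

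The same contrast was made in the small intestine, whose cells had no part in choosing the genes. Cells with 3 or more Cxcl13 UMIs held less Cxcl13 there than in the colon. In CD81- FBs such cells were at 932 CPM (median 5 UMIs) in the small intestine and 3902 CPM (median 12) in the colon. The part of this in the ratios below was not tested. In 226 small intestinal CD81- FBs with 3 or more Cxcl13 UMIs against 2198 with none, 0.446% of 8078 genes were past the fold on the higher and 0.594% on the lower side. Of the 10 highest colon genes, 4 passed the filter there (C3, Enpp2, Pde3b and Plcxd3) and none of these was past the fold. The others were too low to assess, with Frmpd4 at 1.15 and 1.86 CPM. Of the 10 lowest, 9 passed, all but Cd36, and none of these was past the fold in the same direction. Agt and Cxcl14 were past the fold the other way: Agt was at 135 CPM in the small intestinal cells with Cxcl13 and 31.4 CPM in those without (1.81), and Cxcl14 at 174 and 74.2 CPM (1.13). Adamdec1 was at 9254 and 7883 CPM (0.23), C3 at 625 and 1043 CPM (-0.73), Enpp2 at 28.2 and 47.9 CPM (-0.60) and Cd81 at 6.91 and 8.06 CPM (-0.10).

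**Figure D5:**
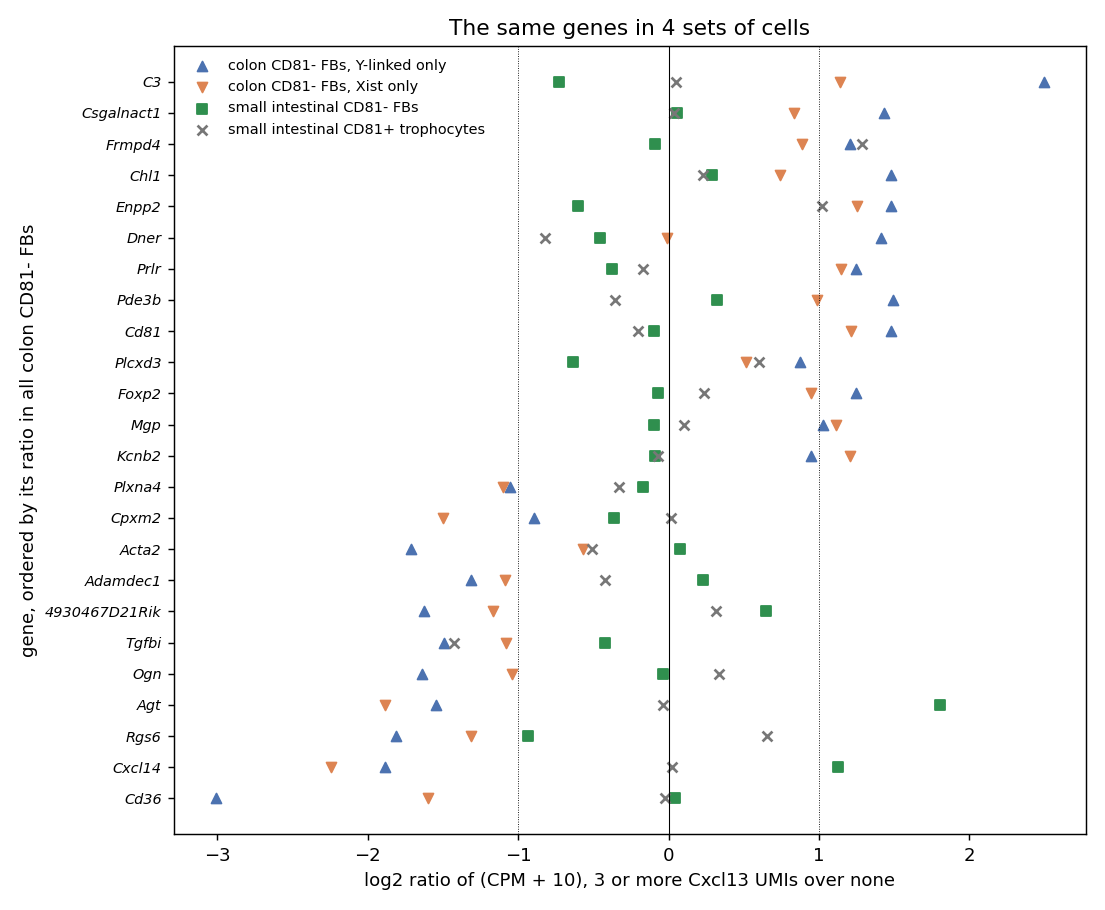
Log2 ratio of (CPM + 10) between cells with 3 or more Cxcl13 UMIs and cells with none (horizontal; dotted lines at -1 and 1) for the 24 genes named from the colon contrast (vertical), in Y-linked and Xist colon CD81- FBs, small intestinal CD81- FBs and small intestinal trophocytes. Colon symbols lie on 1 side of 0 for each gene except Dner. In small intestinal CD81- FBs 16 of the 24 lie on the side opposite to their pooled colon ratio. Of these, Agt (1.81) and Cxcl14 (1.13) are past the fold.

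Other genes went with Cxcl13 in the small intestine. In its CD81- FBs the highest were Frmd5 (149 and 25.3 CPM, 2.17), Agt, C6, a late complement component (70.3 and 13.2 CPM, 1.79), Cxcl5, a neutrophil chemokine (99.6 and 23.9 CPM, 1.69), Mmp10, a matrix protease (563 and 168 CPM, 1.68), and Unc5c, a netrin receptor (167 and 47.9 CPM, 1.61). The lowest were Has1, a hyaluronan synthase (8.06 and 134 CPM), Igfbp6 (12.1 and 113 CPM, -2.48) and Timp3, an inhibitor of metalloproteases (124 and 682 CPM, -2.37). Immediate early genes were also lower in these cells, with a median of -0.89 beside 0.05 for all genes, and Fos at 624 and 1363 CPM. Of the 15 that passed, 7 were past the fold on the lower side, beside 0.594% of all genes. Heat shock genes had a median of -0.71 over 13, with 2 past the fold on the lower side. The part of the response to digestion in this contrast was not tested.

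In small intestinal trophocytes, 186 cells with 3 or more Cxcl13 UMIs stood against 1469 with none, with 0.726% of 7713 genes past the fold on the higher and 0.908% on the lower side. The 186 cells held 1289 CPM of Cxcl13. Alk, a receptor tyrosine kinase, was highest (419 and 45.4 CPM, 2.95), followed by Chodl (181 and 29.3 CPM, 2.28) and Inpp4b, a phosphoinositide phosphatase (134 and 20.1 CPM, 2.26). Sntb1 (12.9 and 178 CPM, -3.04), Pi16, a marker of adventitial fibroblasts (15.7 and 193 CPM, -2.98), and Igfbp5 (-2.59) were lowest. Of the colon genes, Frmpd4 (47.1 and 13.4 CPM, 1.29), Enpp2 (85.7 and 37.1 CPM, 1.02) and Tgfbi (85.0 and 245 CPM, -1.42) were past the fold in the same direction in these trophocytes. In colon SEMFs the contrast set 80 cells against 855, with 1.45% of 6956 genes past the fold on the higher and 1.28% on the lower side. The 80 cells held 761 CPM of Cxcl13.

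Across the 6 cell types of both tissues (12 values) the genes most like Cxcl13, by Pearson correlation of log2(CPM + 10) over 5976 genes, were Kdelr1 (r = 0.81), Ptges (0.81), Edil3 (0.80), Serpina3n (0.79) and P4hb (0.79). The 6 values of a tissue share a library, and no p is given. Edil3 was at 559 CPM in colon and 268 CPM in small intestinal CD81- FBs, and Serpina3n at 695 and 327 CPM, while Kdelr1 ranged only from 99.4 to 159 CPM over all 12. The list was not stable: with a pseudocount of 1 CPM 1 of the 5 stayed among the first 5, with Spearman's correlation 2, and with the 6 fibroblast values alone 0.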

How the data were processed

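The authors deposited, per library, raw UMI counts of each cell, natural log values made from them, and cell labels as text. Cell Ranger 7.1.0, Seurat 4 and the build mm10 are named in the submitters' processing notes. The deposited natural log values of Cxcl13 were recovered from the counts, as ln(1 + 10000 x UMIs / total), to within 5.3e-15, and were used only as an alternative. All deposited cells were used, with no further filter and no removal of doublets, and colon capillary, arterial and venous endothelial labels were joined as BECs. No column outside the 2 libraries was present (0).

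UMIs were summed per library and type and given as CPM with exact Poisson intervals, shares of cells with exact Clopper-Pearson intervals, and ratios with exact conditional binomial intervals. Thinning drew each cell to 3000 UMIs without replacement. A count of 0 was given a floor of 3 counts. Contrasts used a pseudocount of 10 CPM and left out mitochondrial, ribosomal protein, haemoglobin, immunoglobulin and sex-linked genes and Cxcl13. Named genes were the 10 highest and 10 lowest ratios in all colon CD81- FBs, the 8 and 8 with the largest smaller ratio in both Y-linked (Ddx3y, Eif2s3y, Kdm5d, Uty) and Xist cells, the 5 most alike genes, and genes of the lists. The gene, its contrast and the lists were chosen with earlier results of these data known. The contrast script was tested on simulated counts. Promoters came from RefSeq (GRCm38.p6) and gene models from GENCODE. Python 3.11.15, numpy 2.4.6, scipy 1.17.1, pandas 2.3.3 and matplotlib 3.10.9 were used. Levels were recomputed under other totals, cell filters, depths and thresholds.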

Additional observations from a re-analysis of the deposited data

Results flagged for a closer look

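The direction of the tissue difference in Cxcl13 was not the same in all fibroblasts. The log2 ratio of colon over small intestine was 2.89 in CD81- FBs and 2.02 in PDGFRa-high SEMFs, and -1.79 in CD81+ trophocytes, with counting intervals that do not reach 0 in any of them. This difference between cell types was not tested, because each tissue has 1 library. The directions were the same with Y-linked and with Xist colon cells.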

How the results depend on the processing

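No paired analysis was possible because each tissue has 1 library and no replicate numbers. The level in colon CD81- FBs, 788 CPM, was 848 CPM as a mean over cells, 950 CPM with mitochondrial and ribosomal protein genes out of the totals, 823 CPM without the 6% of cells with the most UMIs, 776 CPM without the top cell, 848 CPM after thinning to 3000 UMIs, 1447 CPM in Y-linked and 253 CPM in Xist cells. In small intestinal CD81- FBs, 106 CPM became 113 CPM as a mean over cells and 124 CPM with the smaller totals. The log2 tissue ratio in CD81- FBs was 3.77 with Y-linked and 1.25 with Xist colon cells, in trophocytes -1.36 and -2.78, and in SEMFs 1.55 with Xist cells, 2.32 as a mean over cells and 2.31 without the 6% of cells. In deposited natural log values, colon minus small intestine was 0.42, -0.26 and 0.23 in CD81- FBs, trophocytes and SEMFs, the same directions. The share of positive colon CD81- FBs, 31.9%, was 19.7% at 3 or more UMIs, 25.8% and 20.1% after thinning to 3000 and 1500 UMIs, 40.7% in Y-linked and 24.2% in Xist cells, and the small intestinal 22.1% became 8.01%, 14.6% and 9.71%. The log2 ratio of Y-linked over Xist cells was 2.68 with 2 or more sex-linked UMIs, 2.64 after thinning and 2.60 without the 6% of cells. It was 1.42 in trophocytes and 0.50 in SEMFs. The causes were not tested.

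The number of genes past the fold, 16 higher and 18 lower, was 3 and 3 for 1 or more UMI against none, 26 and 45 for 10 or more, 24 and 37 with a pseudocount of 1 CPM, and 3 and 5 with one of 50 CPM. It was 18 and 30 in Y-linked cells and 7 and 17 in Xist cells. In small intestinal CD81- FBs it was 36 and 48 (0.446% and 0.594% of genes), with 0 shared in either direction. At shares this low few shared genes would be seen in any case, so the 0 is not read as a result. In 2 sets added after the data were seen the number was again counted. It was 56 and 70 in small intestinal trophocytes (0.726% and 0.908%), with 3 and 1 shared. In colon SEMFs it was 101 and 89 (1.45% and 1.28%), with 1 and 1 shared. Of the 5 genes most like Cxcl13, 1, 2 and 0 stayed under the other settings.

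Of the 24 named genes, 1 changed sign within colon CD81- FBs, Dner in Xist cells (-0.011). In small intestinal CD81- FBs 16 did: C3 -0.73, Frmpd4 -0.088, Enpp2 -0.60, Dner -0.45, Prlr -0.38, Cd81 -0.10, Plcxd3 -0.64, Mgp -0.10, Foxp2 -0.068, Kcnb2 -0.093, Cd36 0.042, Cxcl14 1.13, Agt 1.81, 4930467D21Rik 0.65, Adamdec1 0.23 and Acta2 0.075. In small intestinal trophocytes 10 did: Dner -0.82, Prlr -0.17, Pde3b -0.35, Cd81 -0.20, Kcnb2 -0.073, Cxcl14 0.023, Rgs6 0.66, Ogn 0.33, 4930467D21Rik 0.32 and Cpxm2 0.017. In colon SEMFs 14 did: C3 -0.037, Chl1 -0.40, Dner -0.12, Plcxd3 -0.15, Foxp2 -0.016, Cd36 0.66, Cxcl14 0.48, Rgs6 0.50, Agt 1.63, Tgfbi 0.78, 4930467D21Rik 1.33, Adamdec1 0.15, Cpxm2 1.03 and Plxna4 0.85. Low levels limit these ratios where a gene has few UMIs in the high cells. Of the genes that changed sign, Frmpd4, Dner, Prlr, Cd81, Kcnb2 and Cd36 did not pass the filter in small intestinal CD81- FBs. Kcnb2, Cxcl14 and Cpxm2 did not pass it in small intestinal trophocytes.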

Other observations

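Colon PDGFRa-high SEMFs with Cxcl13 had genes of their own. Against 855 cells with none, the 80 cells with 3 or more Cxcl13 UMIs held more Fst, the activin antagonist follistatin (107 and 9.40 CPM, log2 ratio 2.59), Col6a4, a collagen chain (153 and 24.7 CPM, 2.23), and Nrg1, the epidermal growth factor family ligand neuregulin (1006 and 228 CPM, 2.10). They held less Tagln, a contractile protein (229 and 1269 CPM, -2.42), Bmp3 (55.9 and 248 CPM, -1.97) and Aspn, a small proteoglycan (250 and 982 CPM, -1.93). Nrg1 was thus higher with Cxcl13 in SEMFs and lower with it in pooled colon CD81- FBs (22.1 and 54.9 CPM, -1.02), where the ratio was -0.46 in Y-linked and -2.02 in Xist cells. Over the 5 bins of Cxcl13 UMIs in Y-linked cells Nrg1 was not ordered, at 46.8, 20.1, 67.7, 18.5 and 7.14 CPM. These genes were chosen after their values were seen.

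Mgp was named for its ratio in both sets of sex-linked cells, so the shares by Mgp level restate that contrast and are no separate evidence. Cells with 3 or more Cxcl13 UMIs were 8.46%, 24.2%, 36.5% and 43.8% of the Y-linked cells in rising quartiles of Mgp level, and 4.21%, 8.66%, 10.1% and 25.3% of the Xist cells. The median depth of these quartiles lay between 6424.5 and 7484 UMIs.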
